A study of Mus musculus with 9 samples.

Results

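The mast cells and basophils of the mouse gut lamina propria were selected on their own transcripts, and 59 cells met the rule among 31759 cells kept from 9 single-cell RNA libraries (0.186%, exact 95% binomial interval 0.141 to 0.240). A barcode was kept when at most 15% of its UMIs (unique molecular identifiers, each standing for 1 counted RNA molecule) were mitochondrial and at least 200 genes were detected. A kept cell was chosen by at least 1 UMI of at least 2 of the 6 genes Cpa3, Ms4a2, Fcer1a, Gata2, Mcpt8 and Kit, with fewer than 5 Lyz2 UMIs and 0 UMIs of Cd79a, Cd3e and Col1a2. Since expression chose the cells, levels that set them apart from other cells, or Mcpt8+ from Kit+ cells, are given as descriptions with no test.

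All cells were sorted as CD11b+ lamina propria cells of male C57BL/6 mice aged 7 to 8 weeks. The groups were the small intestine of normal mice (2 libraries), the colon of germ-free (GF) mice (2 libraries), the colon of specific pathogen-free (SPF) mice given pan-antibiotics (ampicillin, vancomycin, neomycin and metronidazole) in the drinking water (1 library), the colon of mice labelled Nlrc4-deficient and given dextran sodium sulfate (DSS, an agent that injures the colonic epithelium; 1 library), the colon of wild-type SPF mice given DSS (1 library), and the colon of untreated SPF wild-type mice (2 libraries). DSS was given at 2.5% in drinking water for 7 days. Nothing in the labels gives the mice behind each library, nor ties the numbered libraries to different animals, so p-values measure only the spread between libraries, which may be technical.

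The files held 2083 to 7876 barcodes and 13243317 to 64453601 UMIs per library, and the median kept cell had 3342 to 12322.5 UMIs. The targeted transcript was not lower in the library labelled Nlrc4-deficient, where Nlrc4 stood at 19.9 CPM (UMIs of the gene scaled to 1000000 UMIs in all), against 10.8 CPM in the DSS colon library and 2.42 to 16.5 CPM in the other 7 libraries. The part of the gene that was deleted is not given in the sources used here, and 3' tags outside it would check nothing. Of 31591 distinct kept barcodes, 145 occurred in more than 1 library, and 0 of the 59 members had such a barcode. No doublet caller was run. Of the members, 10 had more than 3 times the median UMIs of their library, and 7 of these belonged to the Kit+ cells with few protease transcripts described last.

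Mast cells and basophils are granulocytes that carry the high-affinity IgE receptor (Fcer1a encodes its alpha chain and Ms4a2 its beta chain) and release histamine, lipid mediators and cytokines when it is crosslinked. Both depend on the transcription factor GATA2. Mast cells need the stem cell factor receptor KIT and live in tissue, where the mucosal form stores the chymases encoded by Mcpt1 and Mcpt2 and the connective tissue form stores Mcpt4, Cma1 and the tryptases with heparin and histamine. Basophils circulate, lack KIT and store the protease encoded by Mcpt8. Cpa3, a carboxypeptidase of mast cell granules, is transcribed in both.

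The 59 cells were separated by the basophil gene Mcpt8 and the mast cell gene Kit. Mcpt8 without Kit was found in 15 cells from 4 libraries, Kit without Mcpt8 in 30 cells, both genes in 8 cells and neither in 6 cells. Protease transcripts then parted the 30 Kit+ Mcpt8- cells, a division made after their values were seen: 17 cells from 7 libraries held 17 to 1895 UMIs of 10 mast cell proteases (median 571), and 13 cells held 0 to 6. The 15 Mcpt8+ Kit- cells held 0 to 8 of these UMIs, with a median of 0. The labels "mast cell" and "basophil" did not match the markers of the 13 Kit+ cells with at most 10 protease UMIs. The other 46 of the 59 cells include the 8 with both genes and the 6 with neither. Mcpt8 and Kit alone do not assign those cells to either label.

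**Figure D1:**
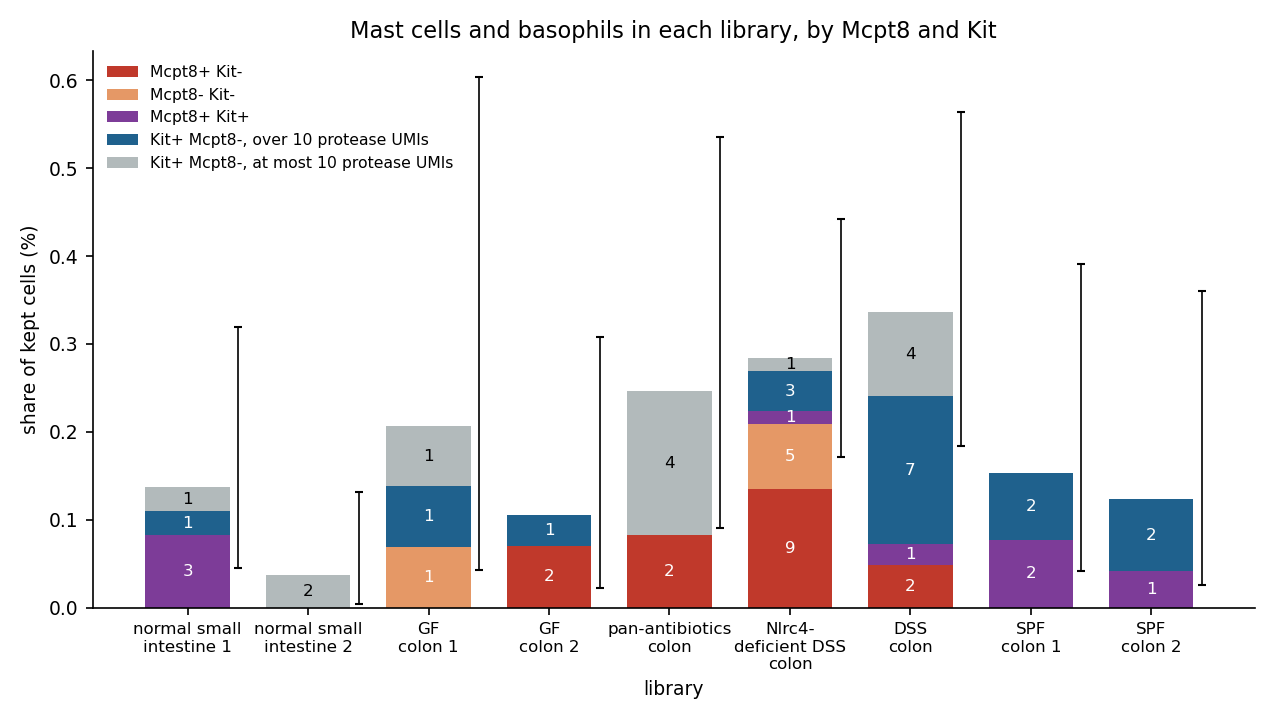
Share of kept cells in each library (y axis, percent) that met the rule, stacked by Mcpt8 and Kit, with the number of cells printed in each bar and the exact 95% binomial interval of the total beside it. Mcpt8+ Kit- cells (red) were found in 4 of the 9 libraries, 9 of the 15 in the library labelled Nlrc4-deficient DSS colon.

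The edge of the rule ran through sparse counts. Exactly 2 rule genes were detected in 27 members and 3 or more in 32. Just outside, 3364 kept cells had a UMI of 1 rule gene and met the other conditions; that gene was Kit in 3265 of them, Gata2 in 86, Cpa3 in 5, Mcpt8 in 4, Ms4a2 in 2 and Fcer1a in 2. Among those 3364 cells, 25 held more than 10 protease UMIs and 9 held at least 2 UMIs of Cyp11a1, so cells with such transcripts lay outside the rule. They were spread unevenly. Of the 25, 11 were in GF colon library 1, 7 in the DSS colon library, 2 in SPF colon library 1 and 0 in SPF colon library 2. Of the 9, 6 were in the library labelled Nlrc4-deficient DSS colon. Whether these cells were of the same kind as the members was not tested. A further 4 cells with 2 or more rule genes were set aside for Lyz2 and 3 for Cd79a, Cd3e or Col1a2. Of the members, 49 had 0 Lyz2 UMIs.

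The Mcpt8+ Kit- cells were small in RNA, with a median of 3969 UMIs against 5870 UMIs in the 17 Kit+ cells with proteases. Mcpt8 itself was low in most: it had 1 to 9 UMIs in 13 cells, 28 UMIs in 1 cell of the library labelled Nlrc4-deficient DSS colon and 159 UMIs in 1 cell of the DSS colon library. The last cell alone held Prss34, a basophil tryptase, with 369 UMIs, and it held 19 of the 29 Cpa3 UMIs of the class. Transcripts of the IgE receptor were scarce. Fcer1a was detected in 4 of 15 cells and Ms4a2 in 3 of 15, against 12 of 17 and 13 of 17 Kit+ cells with proteases. Gata2 was detected in 14 of 15 cells, at 1304 CPM (exact 95% Poisson interval 1049 to 1603) over the class and 0.793 CPM in all other kept cells. All of these except Prss34 are rule genes. A cell with Mcpt8 and without Kit entered only with a UMI of Cpa3, Ms4a2, Fcer1a or Gata2. The values of the rule genes therefore follow in part from the selection.

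Histamine and steroid genes were spread more evenly over these cells than Mcpt8 was. Hdc, the enzyme that makes histamine, had a UMI in 15 of 15 Mcpt8+ Kit- cells, with 9 to 66 UMIs and a median of 27. Its level was 7015 CPM in the class. Neutrophil-like cells, defined by at least 3 of the 6 markers Ly6g, Retnlg, Cxcr2, Mmp9, Stfa2l1 and Csf3r, had 1287 CPM, and other kept cells as a whole had 50.5 CPM. Detection of Hdc did not set the class apart from neutrophil-like cells. It had a UMI in 92.1% of the 1279 neutrophil-like cells and in 11.2% of all other kept cells. With each cell thinned to 1000 UMIs, Hdc was detected in 71.7% of 1237 neutrophil-like cells and in 15 of 15 Mcpt8+ Kit- cells. Cyp11a1, which makes pregnenolone from cholesterol, had 2 to 37 UMIs in the 15 cells and 3174 CPM, against 0.923 CPM in all other kept cells. After each cell was thinned to 1000 UMIs, Cyp11a1 was detected in 15 of 15 Mcpt8+ Kit- cells (100%, unthinned 100%), in 0.0727% of 28897 other kept cells (unthinned 0.319%) and in 0.136% of 736 innate lymphoid-like cells. The median depth before thinning was 3969 UMIs in the Mcpt8+ Kit- cells, 5617 UMIs in other kept cells and 5184 UMIs in the innate lymphoid-like cells. Cyp11a1 was not particular to this class among the members. It was detected in 70.6% of the 17 Kit+ cells with proteases after thinning (unthinned 100%). Unthinned, it was also detected in 7 of the 8 Mcpt8+ Kit+ cells. Slc18a2, the transporter that loads amines into granules, stood at 1391 CPM but was detected in 8 of 15 cells. Cd200r3, an activating receptor of basophils and mast cells, was detected in 11 of 15 cells and at 536 CPM, against 0.352 CPM in all other kept cells.

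A further 5 cells of the library labelled Nlrc4-deficient DSS colon carried neither Mcpt8 nor Kit and held 0 UMIs of the 10 proteases. They shared genes with the Mcpt8+ Kit- cells, while others were not or seldom detected in them. Ccl3, Ccl4, Il6 and Acod1, described below, were each detected in 5 of 5 cells. These genes stood at 28052.5, 31038, 4727 and 6966 CPM, against 17189, 20798, 8551 and 6870 CPM in the Mcpt8+ Kit- cells. The Hdc counts of the 5 cells were 28, 17, 29, 27 and 4 UMIs, and the Cyp11a1 counts were 30, 34, 5, 11 and 5 UMIs. Cd200r3 was detected in 5 of 5 cells. Itga2b, the platelet integrin alpha chain, was found in 0 of 5 of these cells, against 12 of 15 Mcpt8+ Kit- cells, and Crlf2, the receptor for TSLP, in 0 of 5 against 10 of 15. Itga2b and Crlf2 were chosen after their values were seen. Both genes were sparse in the Mcpt8+ Kit- cells, at a median of 1 UMI per cell, so a 0 in 5 cells need not be an absence. Il1rl1, the IL-33 receptor, was found in 1 of 5 at 187 CPM, against 13 of 15 at 826 CPM. They had met the rule through 1 to 8 UMIs of Gata2 with 1 UMI of Ms4a2 (3 cells) or of Fcer1a (2 cells), and their depth was 2422 to 3721 UMIs. The sixth Mcpt8- Kit- cell, from GF colon library 1, held 104 Mcpt1 UMIs.

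Transcripts of secreted factors were abundant in the Mcpt8+ Kit- cells and low in the Kit+ cells with proteases. Over 23 cytokine and chemokine genes the sum was 83394 CPM in Mcpt8+ Kit- cells and 4475 CPM in Kit+ cells with proteases. The chemokines Ccl4 and Ccl3, which attract monocytes and lymphocytes, had 20798 and 17189 CPM in Mcpt8+ Kit- cells, against 934 and 811 CPM in Kit+ cells with proteases. Both were detected in 15 of 15 Mcpt8+ Kit- cells, with 10 to 191 UMIs of Ccl3. Il6, a cytokine of acute inflammation, was detected in 14 of 15 cells and stood at 8551 CPM, against 780 CPM in Kit+ cells with proteases, 29.9 CPM in neutrophil-like cells and 58.0 CPM in all other kept cells. Cxcl2, a neutrophil attractant, had 19841 CPM in Mcpt8+ Kit- cells, against 71.9 CPM in Kit+ cells with proteases and 18908 CPM in neutrophil-like cells. Il1b likewise had 6754 CPM in Mcpt8+ Kit- cells, 5935 CPM in neutrophil-like cells and 10.3 CPM in Kit+ cells with proteases. These levels are pooled over libraries that differed.

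The 4 libraries with Mcpt8+ Kit- cells all held these transcripts, at unequal levels. Ccl3 stood at 19159 CPM in GF colon library 2, 28017 CPM in the pan-antibiotics colon library, 20012 CPM in the library labelled Nlrc4-deficient DSS colon and 4520 CPM in the DSS colon library. Il6 stood at 9154, 17848, 7045 and 5870 CPM in the same order. Cxcl2 ranged from 10155 CPM in the DSS colon library to 52794 CPM in GF colon library 2, and Il1b from 3287 to 18627 CPM in the same pair of libraries. Hdc stood at 6599, 11103, 8381 and 2289 CPM in the order given for Ccl3. The DSS colon value came from 2 cells, of which the cell with 13076 UMIs and 159 Mcpt8 UMIs gave most of the molecules. With 2, 2, 9 and 2 cells per library and no replicate of any condition with such cells, no comparison of conditions was made for these genes.

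Markers of other cells were counted in the 15 Mcpt8+ Kit- cells. Plasma cell markers were the most frequent: 2 cells had 2 or more of 6, up to 3, and 5 cells had none. None had 2 or more of the 6 neutrophil markers, the 6 eosinophil markers or the 6 dendritic cell markers, 1 cell had 2 or more innate lymphoid markers, and 1 had 2 or more of 7 macrophage and monocyte markers. The summed level of the neutrophil markers was 174 CPM in Mcpt8+ Kit- cells and 0 CPM in Kit+ cells with proteases. Genes induced by cell isolation were not confined to either class: 10 such genes summed to 7797 CPM in Mcpt8+ Kit- cells and 5964 CPM in Kit+ cells with proteases, with Junb the highest in both, followed by Dusp1 at 1435 CPM and Ier2 at 957 CPM in Mcpt8+ Kit- cells. The Kit+ sum pooled unlike cells. Junb stood at 858 CPM in 13 cells with mainly Mcpt1 and Mcpt2, and at 6788 CPM in 4 with mainly Mcpt4, Cma1 and tryptases. Jun stood at 346 and 3731 CPM in the same order. In Mcpt8+ Kit- cells Junb and Jun stood at 2942 and 841 CPM. The part of isolation or of free RNA in the chemokine transcripts was not tested.

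**Figure D2:**
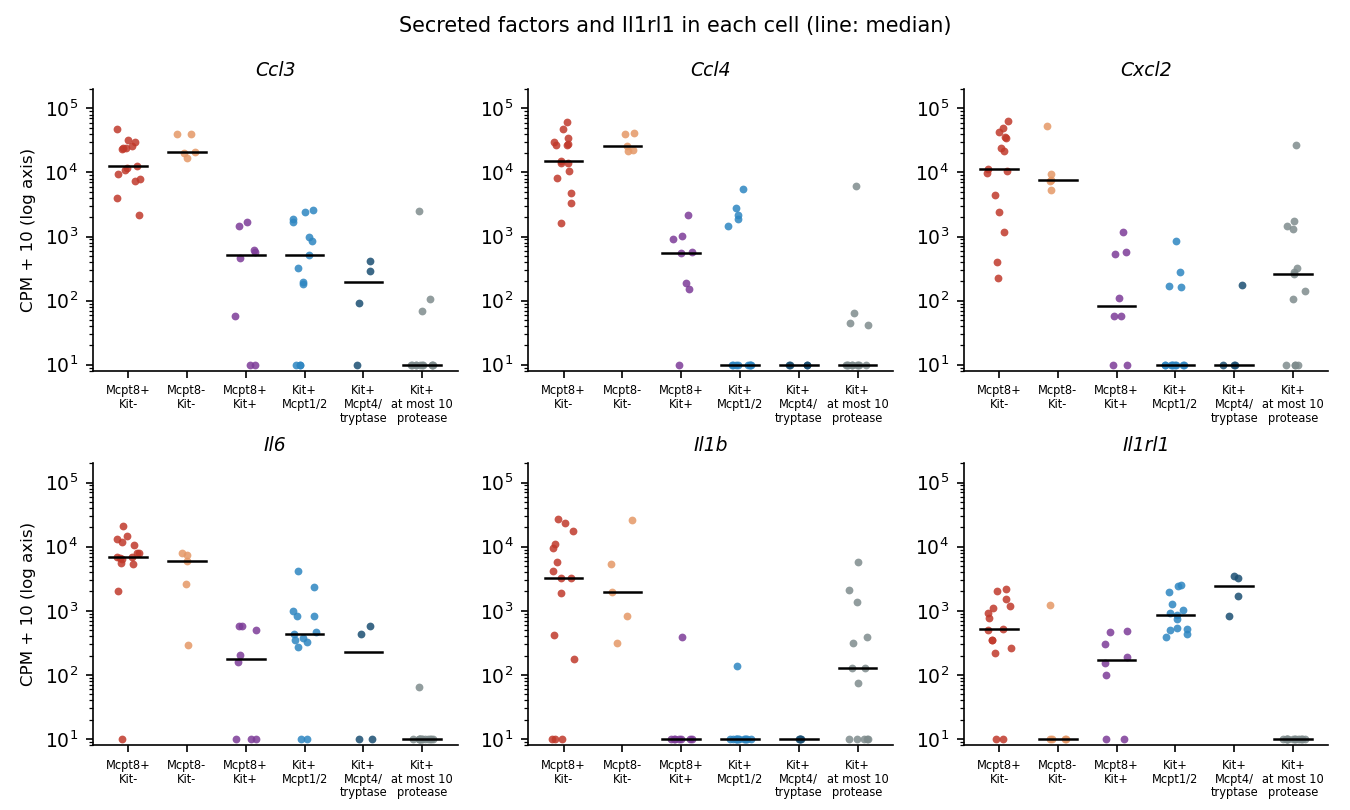
Level of 6 genes in each cell (y axis, CPM plus 10, log axis), by group of cells, with each point 1 cell and the line the median. Ccl3, Ccl4 and Il6 were detected in 14 or 15 of the 15 Mcpt8+ Kit- cells, and Il1rl1 in all 17 Kit+ cells with proteases.

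By the fixed rule of largest ratio against all 30 Kit+ Mcpt8- cells, the genes that led in Mcpt8+ Kit- cells outside the rule genes, with fewer than 3 UMIs taken as 3, were, in order, Acod1, Hgf, Clec4d, Clec4e, Ccl3, Ccl4, Osm, Ccl9, Cxcl2, Aqp9, Ripor2, Tle1, Il6, C5ar1 and Il18rap. Acod1, the itaconate-producing enzyme, had 474 UMIs in 15 of 15 cells, against 1 UMI in the 30 Kit+ cells. Hgf, hepatocyte growth factor, had 82 UMIs in 13 of 15 cells, against 1 UMI in the 30 Kit+ cells and 5.63 CPM in all other kept cells. Acod1 and Clec4e, a C-type lectin receptor of myeloid cells, were also found outside the members, at 259 and 374 CPM in all other kept cells. Il4 was chosen after its values were seen and had a UMI in 7 of 15 Mcpt8+ Kit- cells and in 3 of the 5 Mcpt8- Kit- cells just described, with 21 UMIs at most. Il13, the other type 2 cytokine, had 33 of its 37 UMIs in the class in 1 cell.

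A pair of mast cell forms was seen among the 17 Kit+ cells with proteases. Mcpt1 and Mcpt2 together exceeded Mcpt4, Cma1, Tpsb2 and Tpsab1 together in 13 cells from 5 libraries, and the reverse held in 4 cells from 3 libraries. The chymase genes and Mcpt8 lie together on chromosome 14 of GRCm38, with Mcpt1 at 56017971 to 56020384 on the plus strand, Mcpt2 at 56042041 to 56044642 on the plus strand, Mcpt4 at 56059629 to 56062313 on the minus strand and Mcpt8 at 56082166 to 56085273 on the minus strand. Tpsb2 is at 25366305 to 25369098 and Tpsab1 at 25343245 to 25345562 on chromosome 17. Reads of these near copies may be lost or given to the wrong copy in the counting. That was not tested, and the split between Mcpt1, Mcpt2 and Mcpt4, and between both tryptases, carries this limit. The 4 cells held 905 Mcpt4 UMIs beside 0 Mcpt1 UMIs and 1 Mcpt2 UMI. Mcpt4 was detected in 5 of the 13 cells, all of which held Mcpt1 and Mcpt2.

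In the 13 cells of the first form, Mcpt1 had 72 to 1163 UMIs with a median of 427, which was 90086 CPM over the cells. In the 4 cells of the second form Mcpt1 had 0 UMIs. The cell with the most Mcpt1, in the DSS colon, held 1163 Mcpt1 and 375 Mcpt2 UMIs among 5410 UMIs. Mcpt9 and Cma2, further members of the chymase cluster, followed the first form: Mcpt9 was detected in 9 of 13 cells against 0 of 4, and Cma2 in 7 of 13 against 0 of 4. Cma2 varied from 0 to 486 UMIs, and 486 were in 1 cell of GF colon library 1.

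The 4 cells of the second form came from GF colon library 2 (1 cell), the library labelled Nlrc4-deficient DSS colon (1 cell) and SPF colon library 2 (2 cells). Their Tpsb2 counts were 95, 109, 214 and 11 UMIs in that order. Their Cma1 counts were 145, 212, 121 and 5 UMIs, and their Mcpt4 counts were 152, 204, 549 and 0 UMIs. The cell without Mcpt4 was the shallowest, at 2441 UMIs. Cpa3 had 84, 107, 203 and 9 UMIs in these cells, or 15997 CPM over the 4, against 2921 CPM over the 13 cells of the first form. The division was not complete: 3 of the 13 cells held more than 30 UMIs of Mcpt4, namely 57 and 34 UMIs in 2 cells of the DSS colon and 62 UMIs in 1 cell of SPF colon library 1, and the DSS colon cell with 34 also held 26 Tpsb2 UMIs.

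**Figure D3:**
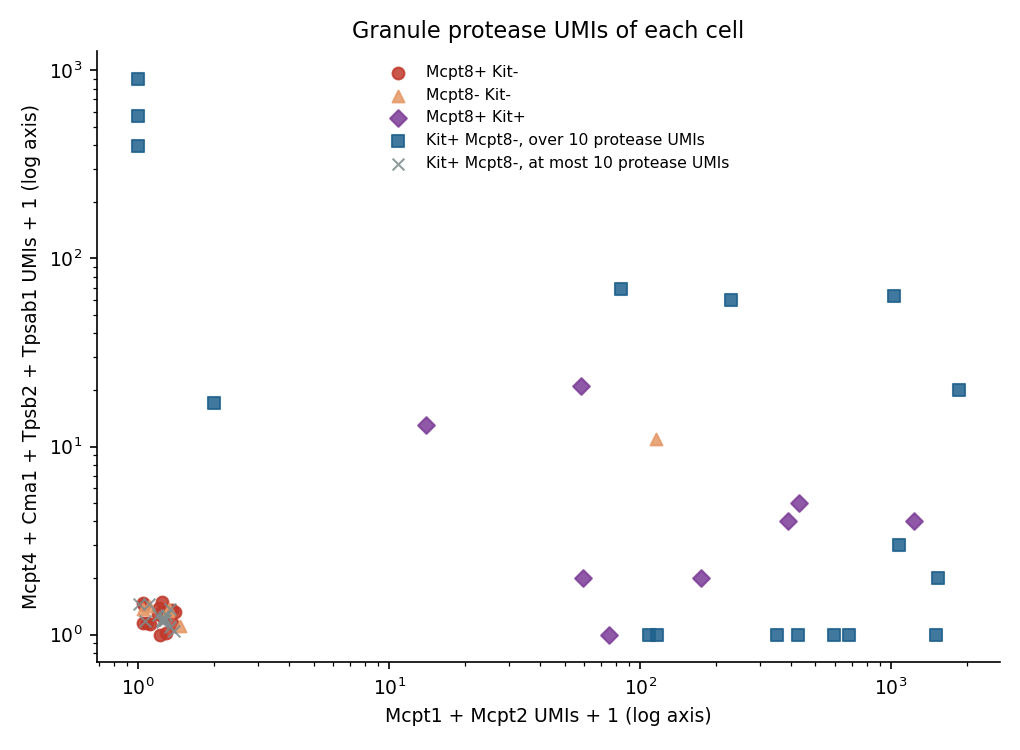
Mcpt1 and Mcpt2 UMIs (x axis) against Mcpt4, Cma1, Tpsb2 and Tpsab1 UMIs (y axis) of each of the 59 cells, both plus 1 on log axes, with cells at 0 on both axes spread slightly so that they can be seen. Of the 8 Mcpt8+ Kit+ cells (purple), 7 lie on the Mcpt1 side and 1, at 13 against 12 UMIs, lies near the diagonal, and the 15 Mcpt8+ Kit- cells (red) lie at the origin.

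Hdc ran with the second form. It had 14, 36, 72 and 15 UMIs in its 4 cells, and 0 UMIs in 12 of the 13 cells of the first form, the other holding 2 UMIs together with Mcpt4 and Tpsb2. Pooled Hdc levels were 5438 CPM in the second form and 27.7 CPM in the first. Tph1, the enzyme of serotonin synthesis outside neurons, was found in both, in 4 of 4 cells and in 12 of 13 cells, and in 0 of 15 Mcpt8+ Kit- cells. Mrgprb1 and, chosen after its values were seen, Mrgprb2, both receptors of the mast cell Mas-related family, were each detected in 3 of 4 cells of the second form. In the first form they were detected in 0 of 13 and 1 of 13 cells. The chemokines Ccl2 and Ccl7, also named after their values were seen, had 3 to 21 and 0 to 29 UMIs in the second form, against 0 to 1 and 0 UMIs in the first.

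Other genes ran with the first form. Gzmb, granzyme B, was detected in 9 of 13 cells with up to 61 UMIs and in 0 of 4 cells of the second form. Ifitm1, an interferon-induced membrane protein used here as a basophil gene, was detected in 13 of 13 cells at 5413 CPM, against 1 UMI in 1 of 4 cells. Itgae, the alpha E integrin chain that binds epithelial E-cadherin, was detected in 11 of 13 against 0 of 4 cells. Il1rl1, the IL-33 receptor, was detected in all 17 cells, at 2 to 39 UMIs in the second form and 2 to 8 UMIs in the first. With 4 cells, a gene at 0 in the second form is one that was not detectable at this depth.

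**Figure D4:**
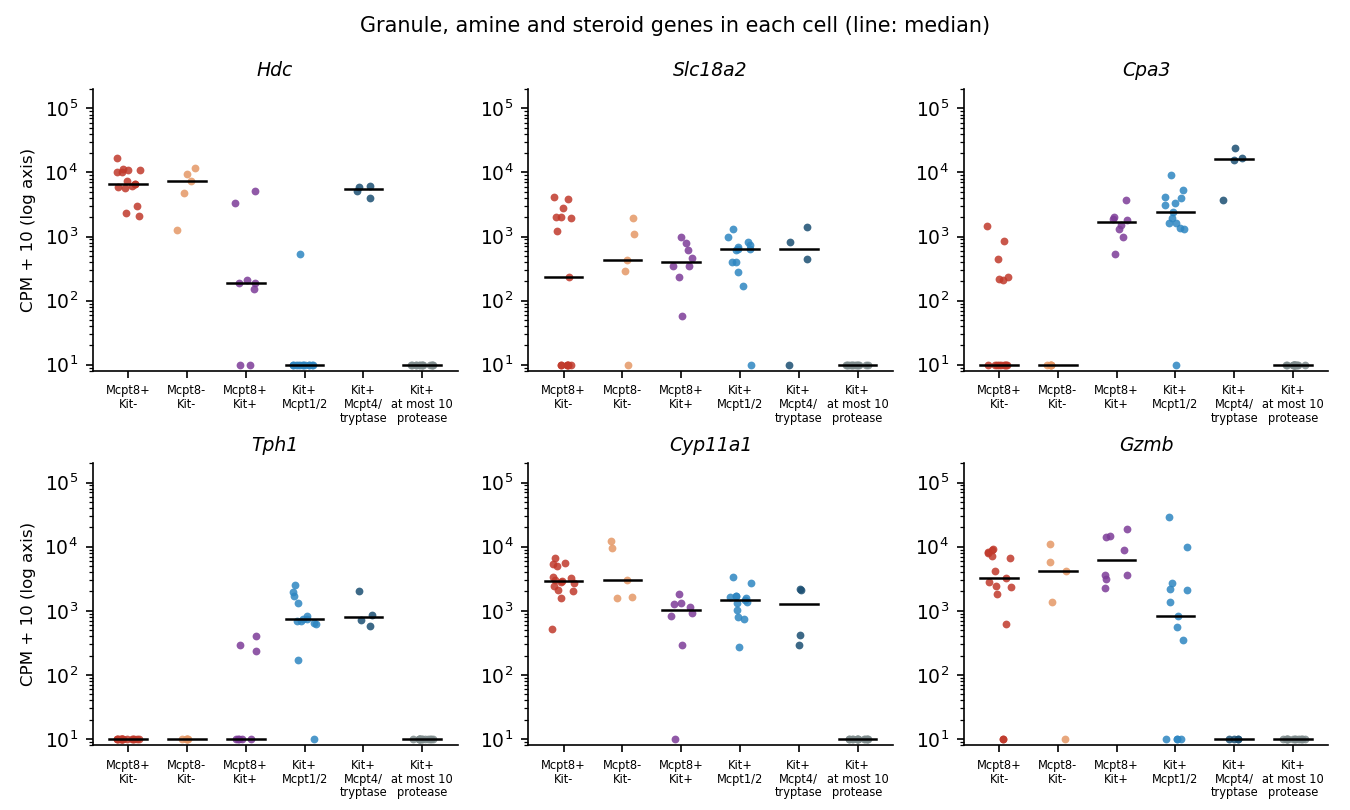
Level of 6 genes in each cell (y axis, CPM plus 10, log axis), by group of cells, with each point 1 cell and the line the median. Hdc was high in Mcpt8+ Kit- cells and in the 4 Kit+ cells with Mcpt4 and tryptases, and 0 in 12 of the 13 Kit+ cells with Mcpt1 and Mcpt2.

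The promoters of 4 rule or protease genes are shown. Mcpt8 defined the Mcpt8+ Kit- class, and Mcpt1 and Mcpt4 entered the split of the mast cell forms. Where these 3 genes were found thus follows in part from the division. Mcpt8 was not confined to its class, with 216 UMIs in the 8 Mcpt8+ Kit+ cells against 225 in the 15 Mcpt8+ Kit- cells. Cpa3 was detected in each of these groups. The sequences run 5′ to 3′ from 250 bases before to 50 bases after the start site, as RefSeq gives them on GRCm38.p6, and the capitals mark the 6-base GATA motifs AGATAA or AGATAG, and TGATAA or TGATAG, and their reverse complements on the other strand.
Mcpt1, chr14:56017714-56018013, plus strand: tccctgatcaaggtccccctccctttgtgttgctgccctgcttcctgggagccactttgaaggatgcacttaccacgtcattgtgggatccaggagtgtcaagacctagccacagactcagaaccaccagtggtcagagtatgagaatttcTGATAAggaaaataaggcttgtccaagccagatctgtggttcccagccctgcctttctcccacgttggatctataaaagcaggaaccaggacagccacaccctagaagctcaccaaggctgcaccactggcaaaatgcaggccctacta
Mcpt4, chr14:56062261-56062560, minus strand: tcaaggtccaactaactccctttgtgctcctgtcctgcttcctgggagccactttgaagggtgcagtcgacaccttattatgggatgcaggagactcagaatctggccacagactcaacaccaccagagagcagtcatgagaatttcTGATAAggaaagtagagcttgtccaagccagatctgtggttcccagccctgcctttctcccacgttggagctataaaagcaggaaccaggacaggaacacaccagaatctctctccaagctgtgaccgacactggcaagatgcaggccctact
Mcpt8, chr14:56085148-56085447, minus strand: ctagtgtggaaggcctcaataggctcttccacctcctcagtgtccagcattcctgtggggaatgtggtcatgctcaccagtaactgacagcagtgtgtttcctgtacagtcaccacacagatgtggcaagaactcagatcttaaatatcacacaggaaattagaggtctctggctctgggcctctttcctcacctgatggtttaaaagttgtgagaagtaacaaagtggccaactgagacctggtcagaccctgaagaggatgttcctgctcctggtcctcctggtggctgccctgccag
Cpa3, chr3:20242132-20242431, minus strand: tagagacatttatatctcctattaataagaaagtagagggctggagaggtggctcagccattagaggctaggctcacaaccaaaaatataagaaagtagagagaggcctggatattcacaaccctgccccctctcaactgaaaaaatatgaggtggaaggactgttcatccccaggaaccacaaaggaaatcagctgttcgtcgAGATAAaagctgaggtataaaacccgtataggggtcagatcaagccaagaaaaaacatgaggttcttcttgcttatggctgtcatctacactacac
At least 1 such motif stood in 29.8% of the 32851 promoters of the same length, and overlapping matches were counted once per start. Mcpt1 and Mcpt4 each held TGATAA, starting 99 and 103 bases before the start site, Cpa3 held AGATAA starting 46 bases before it, and these letters were not found in the Mcpt8 window. The Mcpt1 and Mcpt4 windows were identical at 80.6% of 309 aligned positions, while Mcpt1 and Mcpt8 were identical at 49% of 345. Further genes were searched and are not printed: Ms4a2 held 3 motifs, Cma1, Fcer1a and Hdc held 1 each, and Kit and Gata2 held 0. Motifs were thus found for Hdc, high in Mcpt8+ Kit- cells, and not for Kit. A match is a description of the sequence only.

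The 8 cells with both Mcpt8 and Kit came from small intestine library 1 (3 cells), the library labelled Nlrc4-deficient DSS colon (1 cell), the DSS colon library (1 cell), SPF colon library 1 (2 cells) and SPF colon library 2 (1 cell). They were deep, with 8828 to 21086 UMIs and a median of 11293.5. All 8 held Cpa3 (7 to 42 UMIs), Gata2 (2 to 50 UMIs) and Mcpt1 (13 to 851 UMIs). In 7 of them Mcpt1 and Mcpt2 summed to 57 to 1234 UMIs, against 0 to 20 UMIs of Mcpt4, Cma1, Tpsb2 and Tpsab1, as in the first mast cell form. The cell labelled Nlrc4-deficient was near balance, with 13 against 12 UMIs among 21007, and was not placed in either form. Mcpt8 had 10, 10, 7, 146, 23, 9, 1 and 10 UMIs in the order above. Gzmb was high in these cells, with 28 to 398 UMIs and 9025 CPM, against 4957 CPM in Mcpt8+ Kit- cells and 2312 CPM in Kit+ cells of the first form. Hdc was at 70 and 45 UMIs in the cell labelled Nlrc4-deficient and the cell of SPF colon library 2, and at 0 to 3 UMIs in the other 6. Of the 8, 2 had more than 3 times the median UMIs of their library, and 1 had 3 or more dendritic cell markers. Plasma cell markers were found in all 8, with 2 or more in 6 cells and 3 or more in 3 cells, and 1 cell each had 2 innate lymphoid and 2 macrophage and monocyte markers. Acod1 had 0 UMIs in these 8 cells, against 12 to 85 UMIs in each of the 15 Mcpt8+ Kit- cells. Ccl6 and Ccl9 were each detected in 1 of 8, against 14 of 15. Ccl3 and Ccl4 were detected in 6 and 7 of the 8, against 15 of 15 for both. Whether any of the 8 was a doublet of a mast cell and a basophil was not tested.

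Across the remaining gene lists the classes were compared by counts of genes at least 2-fold apart, among genes with at least 10 UMIs over both the Mcpt8+ Kit- cells and the Kit+ cells with proteases. Over all 2210 such genes, 19.4% were higher by that fold in Mcpt8+ Kit- cells and 27.7% in Kit+ cells with proteases, with a median log2 ratio of -0.31. Since the cells were chosen by expression, nothing is read from these counts. Of 11 measured basophil genes, 9 reached 10 UMIs and 7 were higher in Mcpt8+ Kit- cells. Lilr4b, a leukocyte immunoglobulin-like receptor, stood at 4348 CPM in them and at 996 CPM in Kit+ cells with proteases. Of the secreted factors, 16 reached 10 UMIs, 12 were higher in Mcpt8+ Kit- cells and 3 in Kit+ cells with proteases. Of the mast cell proteases, 9 of 10 were higher in the Kit+ cells.

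Receptors, lipid enzymes and signalling genes were divided. Csf2rb, the shared receptor chain for IL-3, IL-5 and GM-CSF, was detected in 15 of 15 Mcpt8+ Kit- cells at 2449 CPM, against 831 CPM in Kit+ cells with proteases. Csf2rb2, its IL-3-specific partner in mice, had 1449 and 862 CPM in the same order. Ahr, the aryl hydrocarbon receptor, went the other way, at 58.0 and 411 CPM. The Kit+ values here pool both mast cell forms, and Ahr stood at 554 CPM in the first and 0 CPM in the second. Ptgs2, the inducible cyclooxygenase, was at 3174 CPM in Mcpt8+ Kit- cells and 82.1 CPM in Kit+ cells with proteases, while Hpgds, which makes prostaglandin D2, had 0 UMIs in Mcpt8+ Kit- cells and 34 UMIs in 9 of 17 Kit+ cells with proteases. Alox5ap, needed for leukotriene synthesis, was at 1565 and 503 CPM. Among Fc epsilon receptor signalling genes, 10 reached 10 UMIs; 2 were at least 2-fold higher in Mcpt8+ Kit- cells and 5 in Kit+ cells with proteases. Fcer1g, the shared gamma chain, had 1333 and 708 CPM, and Lat2, a linker below the receptor, had 145 and 308 CPM. In the first and second mast cell form, Fcer1g stood at 512 and 1270 CPM and Lat2 at 208 and 595 CPM.

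Srgn, the proteoglycan core that holds granule contents, was the most abundant storage gene, at 14073 CPM in Mcpt8+ Kit- cells and 3480 CPM in Kit+ cells with proteases. Cd63, a granule membrane protein exposed on degranulation, was higher in the Kit+ cells pooled, at 1101 and 3398 CPM in the same order. By form, Cd63 stood at 4112 CPM in the first and 1350 CPM in the second. Among transcription factors, Egr1 was at 2739 and 760 CPM, Bhlhe40 at 58.0 and 452 CPM, and Zeb2 and Runx1 differed less, at 783 and 554 CPM and at 493 and 339 CPM. Within the Kit+ cells with proteases, Egr1 stood at 83.1 CPM in the first form and 2699 CPM in the second. Cxcr4, a homing receptor, had 61 UMIs in 11 of 15 Mcpt8+ Kit- cells and 1 UMI in the 17 Kit+ cells. Pim1, a kinase gene induced by STAT5, had 3667 and 1129 CPM. Mki67, a proliferation gene, had 0 UMIs in Mcpt8+ Kit- cells and 6 UMIs in 3 of the 17 Kit+ cells.

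Transcripts of the sorted antigen were sparse. Itgam, which encodes CD11b, had a UMI in 8 of 15 Mcpt8+ Kit- cells and in 3 of the 5 protease-free Mcpt8- Kit- cells, but in 0 of 17 Kit+ cells with proteases and in 2 of 8 Mcpt8+ Kit+ cells. Thinned to 1000 UMIs, the share was 13.3% of 15 Mcpt8+ Kit- cells (exact interval 1.66 to 40.5%; unthinned 53.3%), 0 of 17 Kit+ cells with proteases, which allows up to 17.6% by the limit of 3 counts (exact interval 0 to 19.5%; unthinned 0%), and 12.2% of other kept cells (unthinned 36.5%), with 2.72% in innate lymphoid-like cells, at the median depths given above. The thinned intervals of both classes overlap, and with 15 and 17 cells at 1000 UMIs they cannot settle whether the classes differ. Before thinning, the class with Itgam was the shallower, with a median of 3969 UMIs against 5870 UMIs. The difference between the classes was not tested. The share of mast cells that such a sort passes cannot be read from the transcript, so shares below are shares of CD11b+ sorted cells.

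The remaining 13 members had Kit with at most 10 protease UMIs. They met the rule with exactly 2 genes, 12 through Kit and Gata2 and 1 through Kit and Ms4a2, with 1 or 2 UMIs of Gata2 in each of the 12. Cpa3, Fcer1a, Mcpt8, Hdc and Cyp11a1 were at 0 UMIs in all 13. Markers of other cells stood in their place: 7 had 2 or more dendritic cell markers and more than 10 UMIs of the class II gene H2-Aa, 3 had 2 or more epithelial markers, 2 of them with more than 10 UMIs of the mucin gene Muc2, and 11 had 2 or more markers of at least 1 of 6 other cell types. Their depth was 1624 to 31423 UMIs with a median of 15259. They made up 4 of the 6 members in the pan-antibiotics colon library and both members in small intestine library 2. Shares of members are therefore given below with and without them.

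The share of members was low in every library and was compared between groups where 2 libraries existed. In the small intestine it was 0.137% (5 of 3654; exact interval 0.0444 to 0.319) and 0.0366% (2 of 5470; 0.00443 to 0.132), and in the SPF colon 0.153% (4 of 2615; 0.0417 to 0.391) and 0.123% (3 of 2431; 0.0255 to 0.360). The means were 0.0867% ± 0.0709 in the small intestine and 0.138% ± 0.0209 in the SPF colon (SD, n = 2 each), a difference of -0.0515 percentage points (exact permutation test, two-sided, p = 0.667; adjusted over 3 tests, 1). Of the 7 small intestine members, 3 were Kit+ cells of few protease UMIs. Without such cells the small intestine shares were 0.109% and 0%, the SPF colon shares were as before, and the difference was -0.0835 percentage points. In the GF colon the share was 0.207% (3 of 1450; 0.0427 to 0.603) and 0.105% (3 of 2846; 0.0217 to 0.308), with a mean of 0.156% ± 0.0718 against 0.138% ± 0.0209 in the SPF colon (SD, n = 2 each; exact permutation test, two-sided, p = 1; adjusted, 1). With 2 libraries against 2, the smallest p the test allows is 0.333, so no difference could pass. Library shares of the GF and SPF colon overlapped. Cells with 1 rule gene and more than 10 protease UMIs, which the rule left out, numbered 11 and 1 in the GF colon libraries. In the SPF colon libraries they numbered 2 and 0. Without the Kit+ cell of few protease UMIs in GF colon library 1, its share was 0.138% and the difference from the SPF colon turned to -0.0165 percentage points.

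Mcpt8+ Kit- cells were 0 of 3 members in GF colon library 1 and 2 of 3 in GF colon library 2, against 0 of 4 and 0 of 3 in the SPF colon libraries (exact permutation test, two-sided, p = 1, n = 2 each; adjusted, 1). They were also 0 of 5 and 0 of 2 members in the small intestine. A count of 0 allows up to 0.0821% and 0.0548% of kept cells in the 2 small intestine libraries, and up to 0.115% and 0.123% in the 2 SPF colon libraries, so the shares found elsewhere would not all have been detectable there. The comparison with the small intestine had 0 in all 4 libraries and was not tested.

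Under the rule as given, the conditions with 1 library each had the higher shares, with no replicate to test them, and for the pan-antibiotics library and the library labelled Nlrc4-deficient that order did not hold with at least 3 rule genes. The share was 0.247% in the pan-antibiotics colon (6 of 2433; exact interval 0.0906 to 0.536), 0.284% in the library labelled Nlrc4-deficient DSS colon (19 of 6698; 0.171 to 0.443) and 0.336% in the DSS colon (14 of 4162; 0.184 to 0.564). Without the 13 Kit+ cells of few protease UMIs the shares were 0.0822%, 0.269% and 0.240% in the same order, against 0.153% and 0.123% in the SPF colon libraries, where no such cell was found. With at least 3 rule genes they were 0.0822%, 0.0896% and 0.192% in that order, against 0.153% and 0.123% in the SPF colon libraries. With each cell thinned to 1000 UMIs they were 0.0455%, 0.0944% and 0.193%, against 0.0439% and 0.144%. The intervals of the main shares cover counting error only and overlap with those of the SPF colon.

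The 2 DSS libraries, 1 of each genotype, held different counts of each class. Kit- members, with or without Mcpt8, were 14 of 6698 cells in the library labelled Nlrc4-deficient (0.209%, exact interval 0.114 to 0.350) and 2 of 4162 in the DSS colon (0.0481%, 0.00582 to 0.173). Kit+ cells with proteases were 3 of 6698 (0.0448%, 0.00924 to 0.131) in the first, against 7 of 4162 (0.168%, 0.0676 to 0.346) in the DSS colon. Both pairs of intervals overlap. Outside the rule, cells with 1 rule gene and more than 10 protease UMIs numbered 1 in the first library and 7 in the DSS colon. Those with 1 rule gene and at least 2 Cyp11a1 UMIs numbered 6 and 0. The counts of Mcpt8+ Kit- cells, 9 against 2, became 2 against 1 with at least 3 rule genes and also after thinning, while the shares of all members were then 0.0896% against 0.192% and 0.0944% against 0.193%. The first library was also deeper, with a median of 8358 UMIs per kept cell against 4323 UMIs in the DSS colon library. Depth, genotype and library cannot be told apart with 1 library each. In a sorted sample, fewer cells of a type and less RNA per cell cannot be told apart either where a cell must reach 2 detected genes to be counted.

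Outside the rule genes, the members were set apart from all other kept cells by few transcripts. Among genes with at least 100 CPM in the members, the 15 with the highest ratio were Prss34, Tpsb2, Mcpt4, Cma2, Mcpt9, Mcpt1, Mcpt2, Tpsab1, Mrgprb1, Cma1, Cyp11a1, Slc18a2, Cd200r3, Il13 and Tph1. Mcpt1 had 17394 CPM in members and 1.23 CPM in the other 31700 kept cells. Cyp11a1 had 1100 and 0.923 CPM in members and other kept cells, and Slc18a2 had 436 and 0.758 CPM. Prss34 was led by a single cell. The eosinophil-like cells, which are other granulocytes, numbered 16 and held 0 UMIs of Mcpt1, Mcpt8, Cpa3 and Cyp11a1, and their median depth was 1071.5 UMIs.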

How the data were processed

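The authors deposited, for each of 9 libraries, a Cell Ranger matrix of UMI counts per gene and barcode (matrix header version 3.0.2, 31053 genes); STAR 2.5.1b and mm10 stand in the submitters' processing notes. The counts were used as deposited, in Python 3.11.15 with numpy 2.4.6, scipy 1.17.1 and pandas 2.3.3. Barcodes with more than 15% mitochondrial UMIs or fewer than 200 genes were left out. CPM are UMIs summed over the cells of a class and scaled to 1000000 UMIs, with exact 95% Poisson intervals, and shares have exact 95% binomial intervals; both cover counting error only. A count of 0 allows up to 3 counts. The library was the replicate. Shares were compared by exact permutation tests with Benjamini-Hochberg adjustment. The rule, the classes and the share test were tested on simulated data. The members and gene lists were chosen with earlier results of these data known. Named genes are the rule genes and at most 5 per list with the most UMIs in members. The 15 largest ratios each way between Mcpt8+ Kit- and Kit+ Mcpt8- cells were added (at least 50 CPM and a UMI in at least 4 libraries of the higher class). So were the 15 largest ratios of members to other kept cells (at least 100 CPM in members). Other genes, among them Itga2b, Crlf2, Ier2, Ccl6 and Mki67, were chosen afterwards. Comparison populations were kept cells with at least 3 of 6 markers. Gene positions are from GENCODE on GRCm38, which is mm10.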

Additional observations from a re-analysis of the deposited data

How the results depend on the processing

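The share comparisons rest on 2 to 5 members per library, so 1 cell moves them. The difference in member share between GF and SPF colon, 0.0180 percentage points, turned to -0.0165 with at least 3 rule genes, to -0.0142 with each cell thinned to 1000 UMIs, and to -0.0165 without the Kit+ cells of at most 10 protease UMIs, an alternative chosen after seeing the data. Leaving out each library in turn gave -0.0328 (without GF colon library 1) to 0.0687. The small intestine difference kept its sign in every alternative run, from -0.102 to -0.00135 when each library was left out. For Mcpt8+ Kit- cells among members, the difference between GF and SPF colon of 33.3 percentage points became 0 without GF colon library 2 and ranged up to 66.7. Of 30 alternative values of the 3 tested comparisons, 25 kept their direction; the replicate block is not counted. The cause of the changes was not tested. As a replicate block, the mean of the differences within replicate number was 0.0180, -0.0515 and 33.3 percentage points, which equals the difference of means by arithmetic and tests nothing; with 2 libraries a group, whether the numbers pair the libraries could not be shown. Small intestine library 2 had no member left with at least 3 rule genes, with 0 Lyz2 UMIs, after thinning or without the Kit+ cells of few proteases, so its Mcpt8+ Kit- share had no value there. The gene tests between conditions were not run because 5 of the 9 libraries held fewer than 5 members, nor were their alternatives.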
